A study of Mus musculus with 3 samples.

Results

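Transcripts of immediate early genes of the FOS, JUN and EGR families were examined among the RNAs recovered with YTHDF2 from mouse embryonic stem cells (ESCs). The members were taken by gene symbol and were 10 of the 49997 genes in the count table, namely Jun, Junb, Jund, Fos, Fosb, Fosl1, Fosl2, Atf3, Egr1 and Ier2. RNA immunoprecipitation sequencing (RIP-seq) had been performed on E14 ESCs exposed to doxycycline (Dox) for 24 h, and yielded 1 Input library and 2 libraries of RNA recovered with an antibody to YTHDF2 (replicates 1 and 2, written IP1 and IP2). The ESC line and the Dox treatment were common to all 3 libraries, and in the cell system of the study Dox switches on a Dux transgene, which moves cells toward a state that resembles the 2-cell (2C) embryo. Neither untreated cells nor an IP with a control antibody was analysed here. The methods of the study describe an IP from a cleared lysate, whereas the labels describe RNA purified with Trizol that went into the IP. The study calls the Input total RNA without saying whether it came from whole cells or from the lysate, which bears on every ratio of IP to Input given here.

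Immediate early genes are transcribed within minutes of a growth factor or stress signal, without any need for new protein, and most of their mRNAs are short-lived. FOS, JUN and ATF proteins pair through leucine zippers to form the transcription factor AP-1, whereas EGR1 is a zinc finger factor that answers to the same kinases. YTHDF2 reads N6-methyladenosine (m6A) in mRNA and brings in deadenylases, which shortens the life of the mRNAs it holds.

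m6A is laid down at short sequence motifs, is known to cluster around stop codons, and GGACT is among its most used motifs. The windows that follow show, for each enriched member and for Fos, the GGACT closest to the stop codon, as a sequence that can carry m6A. Whether these sites are methylated or held by YTHDF2 was not examined here. Only the sense strand was searched, and capitals mark the motif. Distances are from the end of the stop codon to the first base of the motif, and coordinates are 1-based on mm10. All windows lie in the 3′ UTR of the RefSeq mRNA, in exon 1 of the single-exon genes and in the last of 4 exons of Fosl2, Atf3 and Fos.
Jund, 24 bases (chr8:70700097-70700121, plus strand): gcgcatgcgcGGACTagctgcggtg
Jund, 51 bases (chr8:70700124-70700148, plus strand): ggggcgccccGGACTctttcgagac
Jund, 77 bases (chr8:70700150-70700174, plus strand): cggtgcccccGGACTcgacaagccg
Junb, 122 bases (chr8:84977259-84977283, minus strand): ctcacacactGGACTccggcccgcc
Jun, 126 bases (chr4:95050127-95050151, minus strand): tacacaagatGGACTgggttgcgac
Ier2, 119 bases (chr8:84661953-84661977, minus strand): gccaggggaaGGACTgaggagcgag
Fosl2, 135 bases (chr5:32153314-32153338, plus strand): ccacccggtgGGACTtagtggtgag
Atf3, 834 bases (chr1:191170634-191170658, minus strand): aaagggtgtaGGACTccatactcag
Fos, 154 bases (chr12:85476602-85476626, plus strand): tgggcctcaaGGACTtgcaagcatc
In Jund, 3 such motifs begin within the first 77 bases past the stop codon, and in Atf3 the nearest lies 834 bases away. A GGACT in the 3′ UTR near the stop codon was not common to all members. The nearest one of Fosb, not shown, lies in the coding sequence at −930 bases, and the mRNA of Fosl1 holds none. GGACT occurred in the exons of 93.1% of the tested protein-coding genes with a sequence, so its presence alone is a common feature.

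The libraries held between 35259827 and 36986994 counts, and 3 counts, taken as the floor, corresponded to 0.0811 to 0.0851 CPM (counts scaled to the library total). All 9 ESC marker genes were well covered, from 82.0 to 1806 CPM in the Input. None of these 9 was called at the fold threshold used below, although edgeR placed 4 of them higher and 3 lower in the IP at an adjusted p-value under 0.05 and DESeq2 gave the same numbers. Of 7 markers of the 2C state, 1 (14.3%) was enriched, where 15.0% of all tested genes were. The list summed to 1710 CPM in the Input against 2828 in IP1 and 2816 in IP2, mostly from Zscan4c (522, 1245 and 1222 CPM) and Zscan4d (840, 1192 and 1200 CPM). Fibroblast markers summed to 30.0 CPM in the Input and to 16.9 and 17.7 in the IP libraries, with Col3a1 and Dcn at 0 in all 3, and most of the sum came from Thy1 (26.9, 14.1 and 15.1 CPM). Markers of differentiated lineages summed to 51.7, 113 and 101 CPM in the same order, mostly from Eomes (24.9, 53.6 and 51.9 CPM) and Sox1 (10.1, 36.4 and 32.7 CPM). Of the 8 tested lineage markers 1 (12.5%) was enriched by edgeR and 2 by DESeq2, and their median log2 fold change was 0.33. The part of such cells in the values below was not tested.

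Levels of different genes were compared per length, as TPM (counts divided by exonic length and scaled to a common sum). In the Input, Ier2 was the most abundant member at 191 TPM, followed by Jund at 143, Junb at 36.3 and Jun at 15.6. The 95% Poisson intervals of these 4, computed with each read pair taken as 1 count and covering counting error only, did not overlap. Fos (3.67 TPM), Atf3 (3.55) and Egr1 (3.10) had overlapping intervals, as did Fosl2 (0.484), Fosl1 (0.326) and Fosb (0.145), so the order within each of these groups was not resolved. The level of Fosl1 is understated, since 67.7% of the length it was divided by overlaps another gene and could not be counted. In bulk RNA of this kind, fewer cells of a type and less RNA per cell cannot be told apart. The order changed in the IP libraries, where Jund (1102 and 1099 TPM) stood above Ier2 (622 and 616), and Atf3 (15.8 and 14.3) stood above both Egr1 (3.73 and 3.63) and Fos (3.39 and 2.31).

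**Figure D1:**
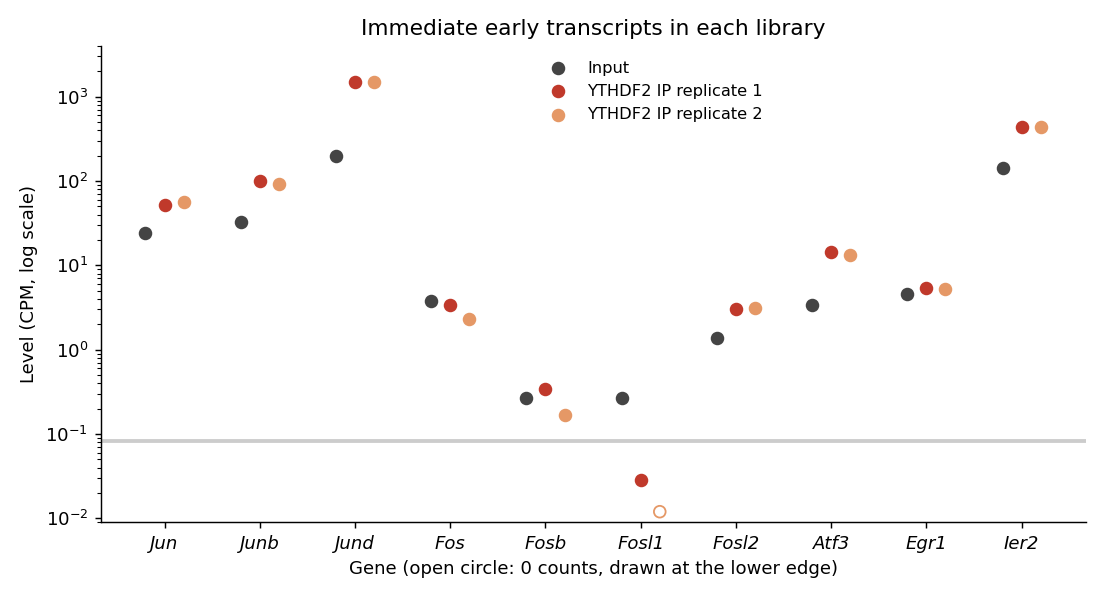
Level of each member in the 3 libraries, in CPM on a log axis. Each point is 1 library, the grey band marks the floor of 3 counts (0.0811 to 0.0851 CPM), and the open circle stands for 0 counts of Fosl1 in IP2. Both IP points lie above the Input for 7 of the 9 tested genes, with the widest gap in Jund, and lie below it for Fos.

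To determine which members were recovered with YTHDF2, the quasi-likelihood test of edgeR was run on IP against Input over all 19601 tested genes. A gene had to pass a Benjamini-Hochberg adjusted p-value of 0.05 and a 2-fold change to be called enriched or depleted. Of the 10 members, 9 passed the filter on low counts and 6 of these were enriched, where 15.0% of all tested genes were enriched. The enriched members were Jund, Atf3, Ier2, Junb, Jun and Fosl2. No member was depleted by edgeR or DESeq2, and none was lower in the IP at an unadjusted p-value under 0.05 with either tool, where 13.0% of all tested genes were depleted. At any fold change, 57.2% of all genes passed the adjusted p-value. The median log2 fold change of IP over Input was 1.06 over the 9 tested members and 0.0063 over all tested genes, whose quartiles were −0.72 and 0.81. Among all calls 53.6% were enrichments, and 63.7% when libraries were scaled to TPM, which placed the median of all genes at 0.154 and left 6 members enriched. The Input had no replicate, so the error comes from the 2 IP libraries alone, which the labels do not describe as separate cultures.

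The JUN genes, which encode the AP-1 subunits that can pair with themselves as well as with FOS proteins, were all enriched. Jund encodes the JUN protein that most cells hold at rest (chr8:70697739-70700616, plus strand, a single exon). It was counted 7398 times in the Input, 52350 times in IP1 and 53293 times in IP2. This corresponded to 200 CPM in the Input and 1485 CPM in each IP library, and the groups did not overlap. Relative to the Input, the log2 ratio was 2.79 in IP1 and 2.80 in IP2. A log2 fold change of 2.80 ± 0.0552 (SE), or 6.95-fold, was fitted with an adjusted p-value of 8.33e-32 by edgeR, and 2.79% of tested genes had a higher value. RefSeq places Jund also on a patch scaffold, so the deposited length of 5756 bases was replaced by the 2878 bases of the single locus for all values per length.

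Junb, which encodes a JUN protein that often opposes Jun (chr8:84976909-84978748, minus strand, a single exon), was counted 1201 times in the Input, 3513 times in IP1 and 3330 times in IP2. Both IP libraries were above the Input, at 99.6 and 92.8 CPM against 32.5 CPM. The log2 ratios of 1.52 and 1.42 gave a fitted log2 fold change of 1.47 ± 0.0866, or 2.77-fold (adjusted p-value 2.02e-17). Jun, the founding member and the classic target of JUN N-terminal kinases (chr4:95049036-95052222, minus strand, a single exon), had counts of 896 (Input), 1821 (IP1) and 2020 (IP2). Its levels were 24.2 CPM in the Input and 51.6 and 56.3 CPM in the IP libraries, again without overlap. The fitted log2 fold change of 1.06 ± 0.107 (adjusted p-value 5.51e-11) was close to the threshold, since the log2 ratio was 0.99 in IP1 and 1.12 in IP2. Without IP2, Jun was at 1.00 and under the fold threshold.

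The unequal recovery within the family changed its makeup. Jund made up 77.9% of the 9495 JUN family counts in the Input (95% Wilson interval 76.7 to 79.1, with each read pair taken as 1 count and for counting error only). Its share was 90.8% (90.4 to 91.1) of 57684 counts in IP1 and 90.9% (90.5 to 91.2) of 58643 counts in IP2. The share of Junb was 12.6% in the Input, 6.09% in IP1 and 5.68% in IP2, and that of Jun was 9.44% against 3.16% and 3.44%. The difference in the share of Jund between Input and IP therefore exceeded both the difference between the IP libraries and the counting intervals. On the scale per length, the share of Jund was 73.4% in the Input, 88.0% in IP1 and 88.3% in IP2.

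The FOS genes, whose proteins bind DNA only as partners of JUN, were less abundant than the JUN genes in every library. Fos itself (chr12:85473890-85477274, plus strand, 4 exons), the prototype of the immediate early class, was counted 139 times in the Input, 118 times in IP1 and 82 times in IP2. Both IP libraries were below the Input, at 3.35 and 2.28 CPM against 3.76 CPM. The fitted log2 fold change was −0.51 ± 0.326, with a 95% interval from −1.15 to 0.13 and an adjusted p-value of 0.184, so a difference from the Input was not detectable at this depth. The IP libraries differed from each other by 0.54 on the log2 scale for Fos, and 18.7% of 1643 tested genes with a like IP count (within 1.5-fold) differed by more. The interval of Fos lies wholly under those of Jun (0.85 to 1.27), Junb (1.30 to 1.64) and Jund (2.69 to 2.90).

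Fosl2, which encodes the FOS-related protein FRA2 (chr5:32136472-32157840, plus strand, 4 exons), was the enriched member of the family. Its counts were 51 (Input), 107 (IP1) and 111 (IP2), or 1.38, 3.03 and 3.09 CPM. The groups did not overlap, and the log2 ratios of 1.03 and 1.06 gave a fitted log2 fold change of 1.05 ± 0.385 (adjusted p-value 0.0184). DESeq2 put its log2 fold change at 1.07 and did not call it. Fosb, known for its lasting isoform in neurons (chr7:19302696-19310118, minus strand, 4 exons), was counted 10 times in the Input, 12 times in IP1 and 6 times in IP2. The Input lay between the IP libraries, and the log2 fold change of −0.19 ± 1.31 carried an interval from −2.76 to 2.39, which leaves its direction unresolved.

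Fosl1, which encodes FRA1 (chr19:5447698-5455938, plus strand, 4 exons), was not tested because it failed the filter on low counts. Its counts were 10 (Input), 1 (IP1) and 0 (IP2). The ratio of IP to Input over the summed counts was 0.0486, and taking the reads as 5 pairs in the Input and 1 in the IP gave an exact 95% interval from 0.00206 to 0.869 that covers counting error only. Of the exonic length of Fosl1, 67.7% (1155 bases) is shared with exons of Ccdc85b on the opposite strand. Strand was not used in the counting and reads that touched several genes were dropped, so the counts of Fosl1 cover only the rest of the transcript. No other member shared exonic bases with another gene. Summed over the 4 FOS genes, the family had counts of 210 (Input), 238 (IP1) and 199 (IP2), against 9495, 57684 and 58643 for the 3 JUN genes.

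Among the members outside these families, Atf3, which encodes a stress-induced AP-1 partner and repressor (chr1:191170296-191183333, minus strand, 4 exons), was counted 126 times in the Input. Its counts were 515 in IP1 and 477 in IP2, so that levels rose from 3.41 CPM to 14.6 and 13.3 CPM without overlap. Its fitted log2 fold change of 1.94 ± 0.208, or 3.83-fold (adjusted p-value 2.16e-10), was second among the members to that of Jund. Fos and Atf3 were alike in the Input, at 3.67 and 3.55 TPM, and their log2 fold change intervals (−1.15 to 0.13 and 1.53 to 2.34) did not overlap.

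Ier2, which encodes a small nuclear protein of the immediate early response (chr8:84661331-84662852, minus strand, a single exon), was counted 5216 times in the Input, 15630 times in IP1 and 15802 times in IP2. Its levels were 141 CPM in the Input and 443 and 440 CPM in the IP libraries. The log2 ratio was 1.55 in each IP library, and the fitted log2 fold change was 1.55 ± 0.0591, or 2.93-fold (adjusted p-value 3.68e-23). Egr1 (chr18:34861207-34864956, plus strand, 2 exons), the zinc finger factor that activates many growth genes, had counts of 171 (Input), 189 (IP1) and 188 (IP2). These were 4.62, 5.36 and 5.24 CPM, and the fitted log2 fold change of 0.10 ± 0.262 was not called (adjusted p-value 0.77). Its 95% interval of −0.41 to 0.61 lies below a 2-fold enrichment. The estimate changed sign, without a call, to −0.15 when a trend on GC content was removed and to −0.22 when a trend on exon density was removed.

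**Figure D2:**
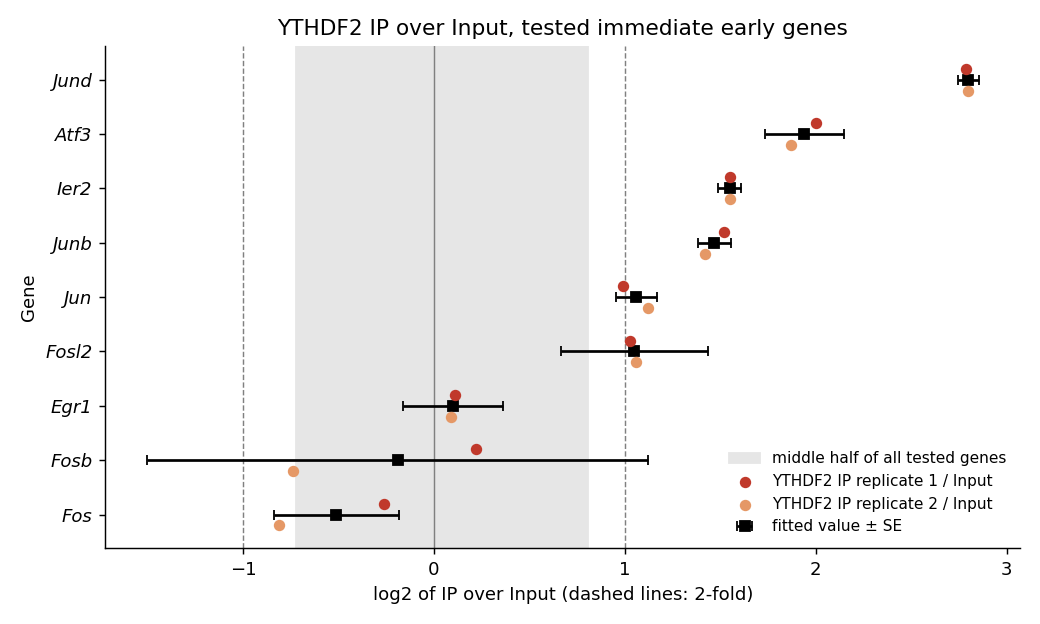
Log2 of IP over Input for the 9 tested members. Squares with bars are the fitted value ± SE, circles are the ratio of each IP library to the single Input, the grey band spans the quartiles of all tested genes (−0.72 to 0.81) and dashed lines mark a 2-fold change. From Jund (2.80) to Fosl2 (1.05) the fitted values lie above the 2-fold line, and Egr1, Fosb and Fos lie within the band.

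Several settings removed some or most of these calls. With the dispersion fixed at 0.1, wider than the spread between the IP libraries, only Jund and Atf3 of the members were enriched. The same 2 genes were called when a trend of the log2 fold change on GC content was removed, and the log2 fold changes were then 1.92 for Jund, 1.75 for Atf3, 0.88 for Fosl2, 0.83 for Ier2, 0.74 for Jun and 0.61 for Junb. With a trend on exon density removed, an alternative added after seeing the data, 4 members were enriched, and Jun (0.76) and Fosl2 (0.74) were no longer called.

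The members share features of gene structure that their choice did not use. Jun, Junb, Jund and Ier2 have 1 exon and Egr1 has 2, whereas the median over 15227 tested protein-coding genes was 10 exons. The 4 single-exon members were all enriched, where 34.1% of the 510 tested protein-coding genes with 1 exon were. Of the 5 tested members with more exons 2 were enriched, where 14.6% of protein-coding genes with at least 2 exons were. Their GC content ran from 51.9% in Fos and Fosl2, close to the median of 50.4% over those genes, to 62.4% in Junb and 62.7% in Jund. Since the share of enriched genes fell from 37.5% at 2 exons to 31.3% at 3, 24.6% at 4 and 11.6% at 5 or more, the members were set beside genes of like structure.

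Among 196 protein-coding genes with 1 exon and a GC content of 55% to 65%, 49.0% were enriched and the median log2 fold change was 1.17, with quartiles at 0.29 and 2.02. Jund (2.80) lay above the upper quartile of these genes. Ier2 (1.55) and Junb (1.47) lay between their median and upper quartile, and Jun (1.06) lay under their median. Among 283 protein-coding genes with 4 exons and a GC content of 50% to 55%, 23.7% were enriched, with a median of 0.20 and quartiles at −0.43 and 1.06. Atf3 (1.94) was above the upper quartile of these, Fosl2 (1.05) was close to it, and Fos (−0.51) was below the lower quartile. The value of Egr1 (0.10) was near the lower quartile of 0.06 among genes with 2 exons. These are descriptions without a test, and the part of exon number and GC content in the recovery of the members was not tested.

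**Figure D3:**
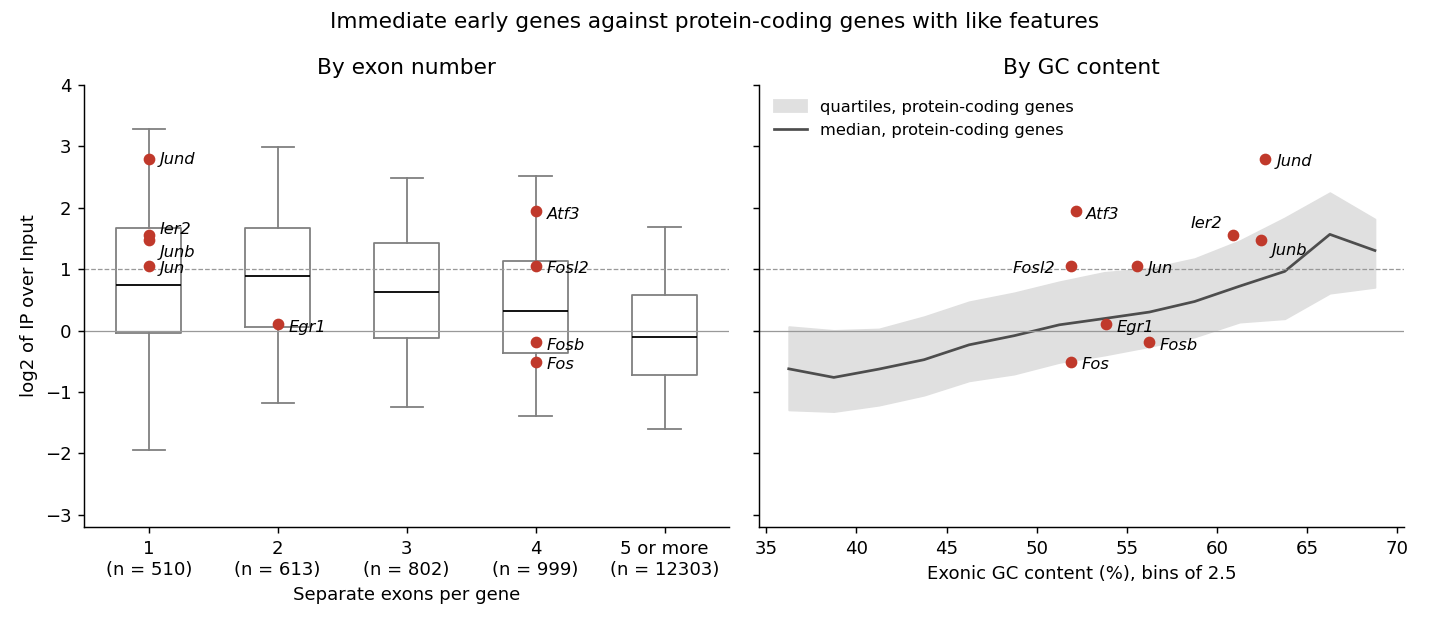
Log2 of IP over Input of the 9 tested members (red) against exon number (left) and exonic GC content (right). Boxes show the median and quartiles of tested protein-coding genes with whiskers at the 5th and 95th percentiles, and the line and band at the right show the median and quartiles in bins of GC content. Jund (2.80) and Atf3 (1.94) lie above the box of their exon class and above the band at their GC content, and Fos (−0.51) lies below the box of genes with 4 exons.

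Motif content was compared as motifs per kilobase of exon. Among the single-exon members, Ier2 held 3.29 GGACT per kilobase, more than 98.8% of tested protein-coding genes. Jund followed with 2.43, Jun with 2.20 and Junb with 1.63, where the median was 1.04. All 4 single-exon members were above that median. Atf3 (1.01) and Fosl2 (1.19) were enriched at about the median density, while Fos (1.42) and Fosb (1.30) were above it without a call and Egr1 stood at 0.651. The densities of enriched and uncalled members thus overlapped. Each exon was searched on its own, so motifs across splice junctions were missed, which can lower the density only in genes with several exons. Fos had 3 GGACT by this search and 4 in its RefSeq mRNA, so its density is understated. In the RefSeq mRNA, Jund holds 4 GGACT in its 5′ UTR and 3 in its 3′ UTR, Jun holds 5 and 2, and Fosl2 holds all 7 in its 3′ UTR of 4651 bases.

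AU-rich elements, built on ATTTA, are the classical decay signals of immediate early mRNAs, and TATTTAT is their core in a stricter form. TATTTAT occurred on the sense strand in 37.3% of the tested protein-coding genes and ATTTA, which lies within it, in 81.3%. Both TATTTAT of the Fos 3′ UTR are shown, since Fos is the textbook case of this element, with distances from the end of the stop codon and the motif in capitals.
Fos, 656 bases (chr12:85477105-85477129, plus strand): ttttcaattTATTTATtaagatgga
Fos, 680 bases (chr12:85477129-85477153, plus strand): attctcagaTATTTATatttttatt
Over all exons, ATTTA was densest in Fos, at 1.90 per kilobase, and in Atf3, at 1.52, against a median of 0.806. Jund had 0.348 per kilobase and Ier2 had none. Fos and Atf3, the pair with the highest densities over all exons, had log2 fold changes of −0.51 and 1.94. In the 3′ UTR alone, ATTTA occurred 4 times in 816 bases of Fos and 3 times in 1186 bases of Atf3. It occurred there 2 times in 486 bases of Junb and 4 times in 1231 bases of Jun. The place of Atf3 thus depends on the region counted.

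Genes that act with or around the members were then described from 5 lists, whose counts stand beside the 15.0% enriched and 13.0% depleted of all tested genes. AP-1 dimer partners, the other leucine zipper proteins that pair with FOS or JUN, had 14 tested genes of 15, of which 7 (50%) were enriched and 1 was depleted, with a median log2 fold change of 1.41. The number enriched fell to 3 with the GC trend removed and to 4 at a mean of at least 10 CPM. Batf3, a partner of JUN proteins in dendritic cells, rose from 18 counts to 139 and 173 (log2 fold change 3.07 ± 0.427). Maff (1.91), a small MAF protein, Mafa (1.74), an activator of the insulin gene, Ddit3 (1.72), the stress factor CHOP, and Jdp2 (1.56), a repressor that pairs with JUN, were enriched as well, but with the GC trend removed Mafa (0.61) and Jdp2 (0.93) were not called. Atf7, a relative of ATF2, was depleted, from 776 counts to 256 and 241 (−1.68 ± 0.163). When either IP library was left out, 2 genes of this list were past the 2-fold line on the depleted side.

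Of 32 other immediate early genes, 28 were tested, 9 (32.1%) were enriched and 2 were depleted, with a median of 0.31. The number enriched fell to 3 with the GC trend removed and to 4 with the dispersion fixed at 0.1. Nfil3, a leucine zipper repressor, was highest, with 203 counts (Input), 935 (IP1) and 1035 (IP2) (log2 fold change 2.24 ± 0.158). The Ier2 relatives Ier5l (2.11) and Ier5 (2.05), both with a single exon, the EGR family member Egr4 (1.78) and the pseudokinase gene Trib1 (1.54) followed. With the GC trend removed, Ier5l (0.58) and Egr4 (0.45) were no longer called. All 3 tested genes with 1 exon in this list were enriched, where 34.1% of protein-coding genes with 1 exon were. Sgk1, a serum-induced kinase, fell from 9422 counts to 3404 and 3311 (−1.53 ± 0.0617), and Klf6, a zinc finger factor, fell from 822 to 356 and 416 (−1.13 ± 0.149), though Klf6 was not called with the GC trend removed (−0.62) or under TPM scaling (−0.98). Egr2 and Egr3 were near the floor, with at most 4 counts in any library, and were not tested.

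The upstream kinases and factors that switch the members on were called in both directions. All 24 were tested, 2 (8.33%) were enriched and 2 were depleted, and the median was 0.01, as over all genes. Elk3 (1.56), which binds with SRF at serum response elements, and the ribosomal S6 kinase gene Rps6ka2 (1.03) were enriched, the latter at 0.76 and not called with the GC trend removed. Map3k1, a kinase above the JUN N-terminal kinases, was depleted and fell from 859 to 288 and 186 (−1.90 ± 0.188), with a log2 fold change of −2.26 without IP1 and −1.60 without IP2.

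Of 6 corepressors and ubiquitin ligase genes that restrain EGR and JUN proteins, 2 (33.3%) were enriched and 1 was depleted, with a median of 0.89. Det1 (1.75), part of the COP1 ligase, and Fbxw7 (1.43), which recognizes phosphorylated JUN, were enriched, and Itch (−1.04), another JUN ligase, was depleted. The call of Itch was lost under total count scaling (−0.95), TPM scaling (−0.90) and removal of the GC (−0.55) or exon density (−0.88) trend. Of 13 AP-1 target genes, 10 were tested and 2 were depleted, with a median of −0.67. None was enriched by edgeR or DESeq2, and none was higher in the IP at an unadjusted p-value under 0.05 with either tool. Spp1, which encodes osteopontin, fell from 820 CPM in the Input to 404 and 385 CPM (−1.15 ± 0.05), and Ccnd1, which encodes cyclin D1, fell from 53.9 to 28.1 and 27.6 CPM (−1.05 ± 0.102). Spp1 was not called with the GC (−0.80) or exon density (−0.95) trend removed, nor Ccnd1 under total count (−0.95) or TPM scaling (−0.90). Exons of Ccnd1 share 21.7% of their length with LTO1 on the other strand. With the dispersion fixed at 0.1, Jdp2, Trib1, Klf6, Elk3, Rps6ka2, Fbxw7, Itch, Spp1 and Ccnd1 lost their calls. These lists were described by their counts and medians, and their differences from the members were not tested.

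**Figure D4:**
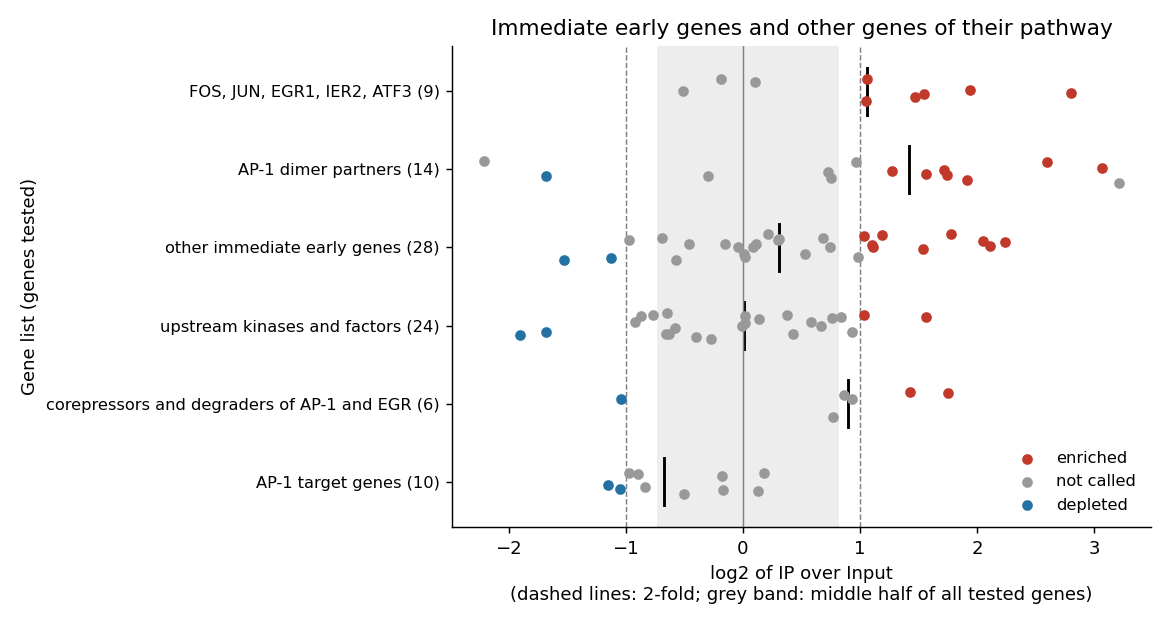
Log2 of IP over Input for the tested members and for the tested genes of 5 pathway lists. Each point is 1 gene, coloured by its call, black bars are list medians, the grey band spans the quartiles of all tested genes and dashed lines mark a 2-fold change. Medians run from 1.41 in the AP-1 dimer partners and 1.06 in the members to −0.67 in the AP-1 target genes.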

How the data were processed

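RIP-seq counts of E14 ESCs (1 Input and 2 YTHDF2 IP libraries, grouped by sample title) were used. Per the submitters' processing notes the tools were fastp 0.19.4, HISAT2 2.2.1 and DESeq2 1.40.2, with the build mm10. The deposited values are raw counts per gene, which the authors made with featureCounts 2.0.3 over RefSeq exons, without strand and with each mate counted on its own. Even numbers accordingly made up 59.6% to 61.0% of the counts from 1 to 100, so sampling noise exceeds that of independent reads. The table held 0 columns of other samples.

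Here, 19601 genes passed filterByExpr and were scaled by TMM (factors 0.957, 1.02 and 1.02) in edgeR 4.0.16 (R 4.3.3). The quasi-likelihood F test was run with robust dispersions (common dispersion 0.00538, a coefficient of variation of 7.33%) and 1 residual degree of freedom, so p-values measure only the spread between the IP libraries. SEs were derived from the F statistic, and 95% intervals of log2 fold changes are normal ones. Single-library ratios used counts with 0.5 added. Tables and intervals were made with Python 3.11.15, pandas 2.3.3 and scipy 1.17.1. The test was checked on simulated counts. Exon number, GC content and motifs came from GRCm38.p6 (the assembly of mm10), and sequences are credited to RefSeq. Beyond the 10 members, up to 5 called genes per direction and list averaging 1 CPM or more and moving alike in both IP libraries were named, while Egr2, Egr3 and the cell type markers were named after their values were seen. A gene that the rule would name is not reported here. In the lists, 4 older symbols were matched through RefSeq. The members and lists were chosen with earlier results of these data known. Alternatives included DESeq2 1.42.0, other scalings, filters and dispersions, halved counts, and removal of trends on GC content and exon density.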

Additional observations from a re-analysis of the deposited data

How the results depend on the processing

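No paired analysis was possible because the Input has a single library, so the groups share fewer than 2 replicate numbers. Among the 10 members, the number enriched (6 as reported) was 2 with a fixed dispersion of 0.1 and 2 with the GC trend removed, 4 with the exon density trend removed, 5 with DESeq2 and 5 at a mean of at least 10 CPM, and it ranged from 5 to 6 when either IP replicate was left out, values without a test. None was depleted under any alternative run. Egr1 changed sign to −0.15 with the GC trend removed and −0.22 with the exon density trend removed, and was called under neither. Enriched genes over the whole table (2936) were 1626 at a mean of at least 10 CPM, where fewer genes were tested, and 1577 with the fixed dispersion, and depleted genes (2543) were 1376 and 1531. With the fixed dispersion, enriched genes were 4 among other immediate early genes, 0 among upstream kinases and factors and 1 among corepressors and degraders, and depleted genes were 1, 0 among corepressors and 0 among AP-1 targets. With the GC trend removed, enriched genes were 3 among AP-1 dimer partners, 3 among other immediate early genes and 4 among corepressors and degraders, and depleted genes were 0 in the last list and 4 among AP-1 targets. At a mean of at least 10 CPM, 4 dimer partners were enriched, and without either IP replicate 2 were depleted (range 2 to 2). Scaling to TPM gave 4 enriched and 0 depleted corepressors and degraders, 1 depleted AP-1 target and 1 depleted gene among other immediate early genes. Total count scaling gave 0 depleted corepressors and 1 depleted AP-1 target. With the exon density trend removed, enriched genes were 4 among upstream kinases and factors, and depleted genes were 0 among corepressors and 1 among AP-1 targets. The causes of these changes were not tested. The exon density trend and a fit without mitochondrial genes were chosen after seeing the data. Low counts limit Fosb and Fosl1, and 67.7% of the exonic length of Fosl1 could not be counted. The missing replicate of the Input limits all comparisons.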
